A study of Homo sapiens with 9 samples.

Results

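The complement system was followed at the RNA level in orthotopic tumors of TBP3743, a murine anaplastic thyroid cancer cell line. The members were 31 gene symbols written down as a list of complement components, receptors and regulators, of which 28 had a row among the 17369 genes of the expression table. C1s1, Cfp and C5ar2 had none and were not analysed here. Clusterin (Clu) was put on the list because a large fall had been seen, so it was selected on the values and is described below without a test against the original cells.

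TBP3743 is 1 cell line, derived from B6129SF1 mice with an activating Braf mutation and a Trp53 deletion that were both restricted to the thyroid, and all groups carried these lesions. Adapted cells were TBP3743 cells taken after round 3 of passage under the skin of C57BL/6 mice, where cells from large tumors were carried on at each round, so they represent 1 selected population. Original cells in B6129SF1 hosts formed the original/B6129SF1 group, adapted cells in B6129SF1 hosts the adapted/B6129SF1 group, and adapted cells in C57BL/6 hosts the adapted/C57BL/6 group, with 3 tumors in each. The hosts were female and 6 weeks old, 100000 cells were injected into the thyroid, and RNA of whole tumors was collected after 14 days. The adapted/B6129SF1 and original/B6129SF1 groups differ in the injected cells, while the adapted/C57BL/6 and adapted/B6129SF1 groups differ in the host strain and its supplier, which cannot be told apart. The adapted/C57BL/6 and original/B6129SF1 groups differ in both cells and host. Each replicate is a separate tumor.

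Complement is a cascade of plasma and tissue proteins that tags cells and debris for removal. The classical pathway starts when C1q binds a target and the proteases C1r and C1s cleave C4 and C2, the lectin pathway starts with MASP proteases, and the alternative pathway amplifies through factor B and factor D. All of them meet at C3, whose fragments coat the target and attract leukocytes, and the terminal components then build a pore in the membrane. The liver makes most plasma complement, whereas C1q comes mainly from macrophages and dendritic cells, factor D (adipsin) from fat cells, and C3, factor B, C2, C4 and C1 inhibitor can also be made by epithelial cells, fibroblasts and macrophages in response to inflammatory cytokines. Host cells are shielded by membrane and fluid phase regulators.

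Values are FPKM, fragments scaled by transcript length and sequencing depth, which the authors normalized jointly for the 9 tumors. Levels of different genes are compared on this scale per length, and the number of reads behind each tumor is unknown. Group means were compared on log2(FPKM + 1), a scale that understates differences of genes with low FPKM. The test was limma over the 10263 genes that reached 1 FPKM in 3 or more tumors, with Benjamini-Hochberg adjustment over all of them, and a gene passed at an adjusted p under 0.05. Of the 28 members, 19 reached this level and were tested, and 9 did not. C2 and Cfd reached it through adapted tumors alone. In such bulk RNA, fewer cells of a type and less RNA per cell cannot be told apart.

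Some tumors stood apart. Skeletal muscle markers (Acta1, Ckm, Myh4 and 9 others) summed to 32887 FPKM in adapted/B6129SF1 replicate 3 and 5122 in adapted/C57BL/6 replicate 1, against 3.69 to 646 in the other 7 tumors. Adapted/B6129SF1 replicate 3 also held the highest adipocyte sum (1263 FPKM against 18.3 to 152 elsewhere), with 12.3 FPKM of the fat hormone Adipoq. Most of that sum was Car3 (949 FPKM) and Fabp4 (263 FPKM). Car3 was next highest, at 40.8 FPKM, in adapted/C57BL/6 replicate 1, the other tumor rich in muscle markers. The part of muscle in this adipocyte sum was not tested. Cidea and Pck1 of the same list were higher in adapted/B6129SF1 replicate 2 (3.34 and 2.80 FPKM) than in replicate 3 (2.36 and 0.802). Adapted/C57BL/6 replicate 2 had the lowest macrophage sum of all tumors, 1632 FPKM. Of the 19 tested members, 8 had their highest value in adapted/B6129SF1 replicate 3 (42.1%, against 15.2% of all tested genes), as did 5 of the 9 members under the filter. The 8 include C2 and Cfd, which entered the test through adapted tumors alone. Another 5 tested members peaked in adapted/C57BL/6 replicate 1 (26.3%, against 3.39% of all tested genes). These 5 include C1qa, C1qb and C1qc, the chains of C1q, so they are not separate observations. As a check of the labelled tumor type, the thyroid transcription factor gene Nkx2-1, named after its values were seen, lay between 23.5 and 44.5 FPKM in all tumors, Tg varied from 0.015 to 31.0 FPKM and Pax8 was at most 1.61, while the keratin Krt8 lay between 153 and 615 FPKM and Epcam at or below 2.49.

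**Figure D1:**
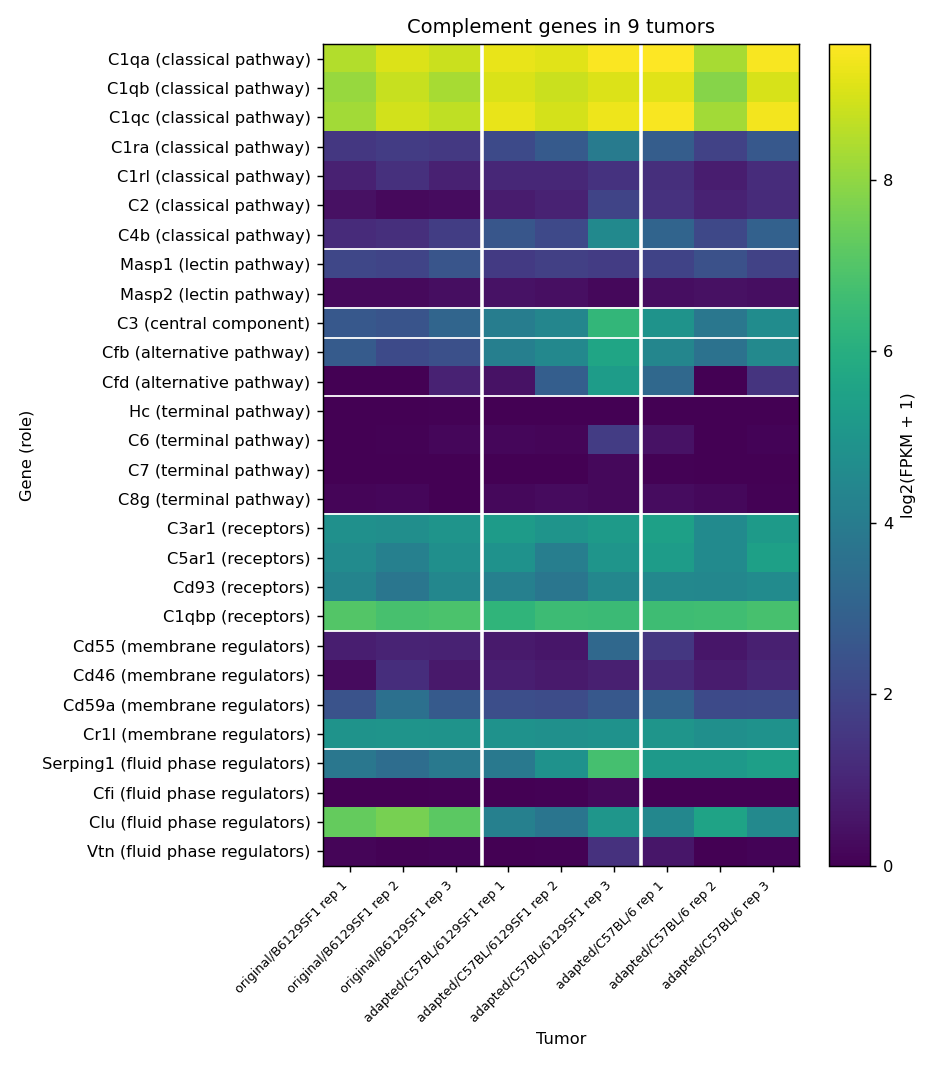
Level of the 28 complement genes with a row (vertical, ordered by role) in each of the 9 tumors (horizontal), as log2(FPKM + 1) in color. The C1q genes are the brightest rows in every tumor, C3, Cfb and Serping1 are brighter in adapted/B6129SF1 replicate 3 than elsewhere, Clu is brighter in the original/B6129SF1 tumors, and the terminal components are dark throughout.

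Adapted cells gave tumors with more C3 and factor B (Cfb) RNA than original cells in the same host strain. In adapted/B6129SF1 against original/B6129SF1, 2 of the 18 members counted passed as higher (C3 and Cfb) and 1 as lower (C1qbp), by limma and with Clu left out. Of all tested genes 4.37% passed as higher and 3.92% as lower there. Both higher members also had a log2 fold change above 1, the threshold used in the study for a DEG, which 2.36% of all tested genes met as higher. At an unadjusted p under 0.05 there were 8 of the 18 members, against 26.5% of all tested genes. The median log2 fold change of the members was 0.55 against -0.03 over all tested genes, and 13 of 18 were above 0 against 45.7% of all. These counts hold C2 and Cfd, which entered the test through adapted tumors alone.

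In adapted/C57BL/6 against original/B6129SF1, 1 of the 18 members passed as higher (Cfb, also a DEG) and 0 as lower by limma with Benjamini-Hochberg adjustment, against 3.99% and 2.77% of all tested genes and 2.42% for higher DEGs. An unadjusted p under 0.05 was reached by 5 members, against 24.4% of all tested genes. The median log2 fold change was 0.38 against -0.03 over all tested genes, and 14 of 18 were above 0 against 46.1% of all. C2 and Cfd, which entered the test through adapted tumors alone, are again part of these counts and of the median. The 2 comparisons share the original/B6129SF1 tumors, so they are not separate evidence of a direction.

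In adapted/C57BL/6 against adapted/B6129SF1, which differ in the host, 0 of 19 members passed in either direction and 0 had an unadjusted p under 0.05, which 6.27% of all tested genes had. Of all tested genes 0% passed as higher and 0.0292% as lower, all of the latter also DEGs (0.0292%). The members' log2 fold changes ran from -1.32 ± 1.16 (SE) for Cfd to 0.51 ± 0.38 for Clu, with Cfb at -0.56 ± 0.39. The median was -0.06 against 0.01 over all tested genes.

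**Figure D2:**
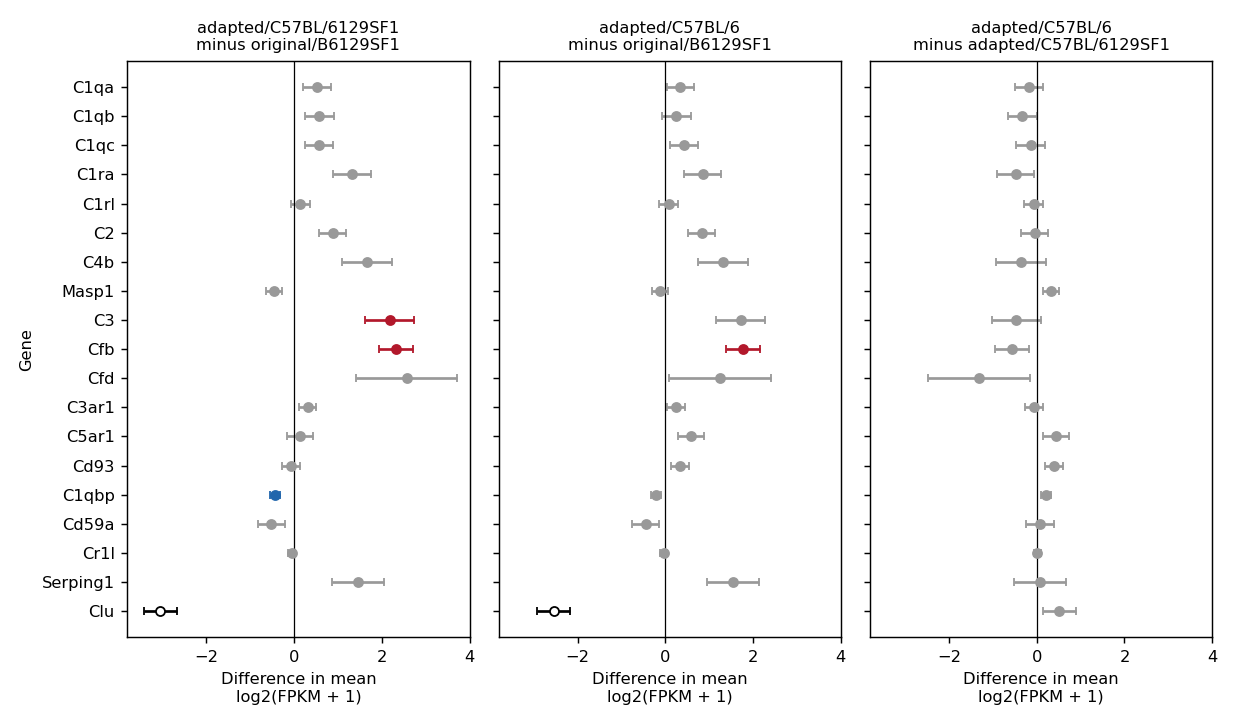
Difference in mean log2(FPKM + 1) with its SE (horizontal) for the 19 tested members (vertical) in the 3 comparisons, red where the member was called higher, blue where lower, grey where it did not pass, and open for Clu against original/B6129SF1, which was not tested. Cfb is red in both comparisons with original/B6129SF1, C3 in the first alone, and nothing is colored in the third.

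Together the members took 0.231% to 0.529% of all FPKM of a tumor, and the 3 C1q genes alone made up 68.7% to 86.6% of that. C1qa, C1qb and C1qc encode the chains of C1q, which assemble in equal numbers. C1qa measured 352, 541 and 453 FPKM in the original/B6129SF1 tumors, 612, 566 and 742 in the adapted/B6129SF1 tumors and 766, 324 and 709 in the adapted/C57BL/6 tumors. C1qb measured 273, 440 and 322 FPKM in the original/B6129SF1, 526, 451 and 545 in the adapted/B6129SF1 and 564, 226 and 512 in the adapted/C57BL/6 tumors. C1qc measured 308, 490 and 401 FPKM in the original/B6129SF1, 613, 498 and 646 in the adapted/B6129SF1 and 716, 302 and 679 in the adapted/C57BL/6 tumors. For each chain the adapted/B6129SF1 tumors all lay above the original/B6129SF1 tumors, while adapted/C57BL/6 replicate 2 was the lowest of the 9.

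The chains kept a narrow proportion, with C1qa at 1.16 to 1.44 times and C1qc at 1.11 to 1.34 times C1qb in every tumor. None of them passed the test. The log2 fold change of adapted/B6129SF1 over original/B6129SF1 was 0.52 ± 0.32 (SE) for C1qa (adjusted p = 0.323), 0.58 ± 0.33 for C1qb (adjusted p = 0.297) and 0.57 ± 0.32 for C1qc (adjusted p = 0.297, limma with Benjamini-Hochberg adjustment). For adapted/C57BL/6 over original/B6129SF1 the C1qa value was 0.34 ± 0.32 (adjusted p = 0.555, limma). The macrophage list had 11 of its 12 genes in the table, and its sum ran from 1824 to 2360 FPKM in the original/B6129SF1, 2116 to 3869 in the adapted/B6129SF1 and 1632 to 2747 in the adapted/C57BL/6 tumors. The tumor with the lowest macrophage sum, adapted/C57BL/6 replicate 2, thus also had the lowest level of each chain. Of these 11 genes 0 passed as higher in the adapted/B6129SF1 group (4 at an unadjusted p under 0.05, limma) and 1, the Fc receptor Fcgr1, in the adapted/C57BL/6 group. The part of macrophage content in the C1q values was not tested.

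**Figure D3:**
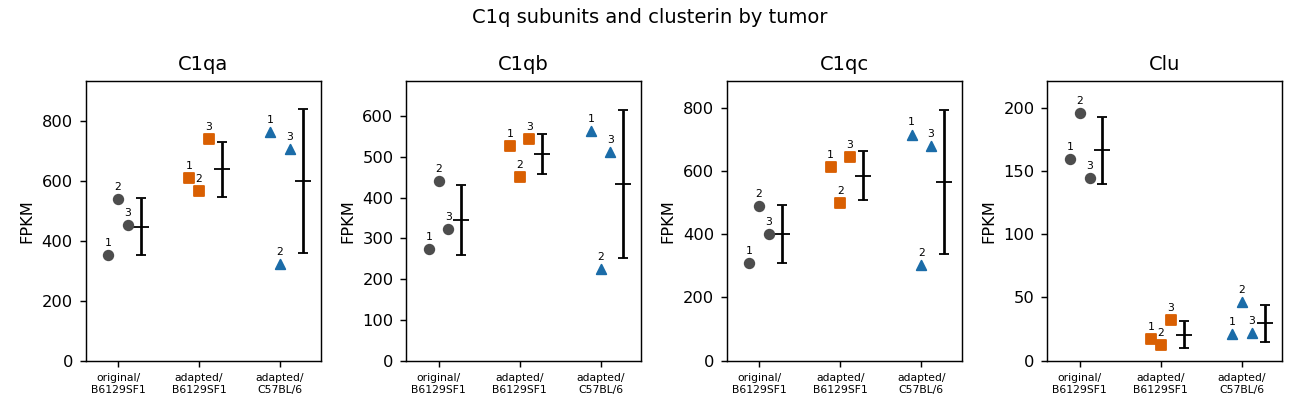
FPKM of C1qa, C1qb, C1qc and Clu (vertical axes from 0) by group (horizontal), with 1 numbered point per tumor and black bars for the mean ± SD (n = 3). The C1q points of adapted/C57BL/6 replicate 2 lie far below those of replicates 1 and 3, whereas the 3 original/B6129SF1 points of Clu (144 to 195 FPKM) lie above all 6 adapted tumors (12.4 to 46.2 FPKM).

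C3, the protein at which all pathways meet, was much less abundant than C1q but higher in every adapted tumor. It measured 5.27, 4.67 and 7.71 FPKM in the original/B6129SF1 tumors, 15.9, 19.9 and 79.9 in the adapted/B6129SF1 tumors and 29.6, 13.1 and 24.4 in the adapted/C57BL/6 tumors. The lowest adapted tumor lay above the highest original tumor, and adapted/B6129SF1 replicate 3 was 2.70 times the next highest tumor. The mean was 5.88 ± 1.61 FPKM (SD, n = 3) in the original/B6129SF1 group, 38.6 ± 35.9 in the adapted/B6129SF1 group and 22.4 ± 8.47 in the adapted/C57BL/6 group. C3 rose in the adapted/B6129SF1 group, with a log2 fold change of 2.18 ± 0.55 (SE; adjusted p = 0.0457, limma with Benjamini-Hochberg adjustment). The adapted/C57BL/6 value over original/B6129SF1, 1.71 ± 0.55, did not pass (adjusted p = 0.0987, limma).

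The wide spread in the adapted/B6129SF1 group came from replicate 3. Without that tumor the log2 fold change of C3 was 1.48 in the adapted/B6129SF1 group (adjusted p = 0.0441, limma) and C3 also passed in the adapted/C57BL/6 group (1.71, adjusted p = 0.0126). The adapted/B6129SF1 call was lost without any 1 of the original/B6129SF1 tumors (adjusted p = 0.129, 0.105 and 0.0963 without replicates 1, 2 and 3), without adapted/B6129SF1 replicate 2 (0.0669) and without any 1 of the adapted/C57BL/6 tumors (0.0605, 0.05001 and 0.0760), with log2 fold changes between 2.05 and 2.45. It was also lost with no filter (0.0805) and with only the groups compared (0.0856, limma).

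Cfb encodes factor B, the protease precursor of the alternative pathway convertase, and it had the smallest adjusted p of the members tested. It measured 5.76, 3.40 and 4.12 FPKM in the original/B6129SF1 tumors, 16.4, 21.1 and 48.7 in the adapted/B6129SF1 tumors and 20.0, 11.3 and 22.0 in the adapted/C57BL/6 tumors. All 6 adapted tumors lay above all 3 original tumors. The mean was 4.42 ± 1.21 FPKM (SD, n = 3) in the original/B6129SF1 group, 28.7 ± 17.5 in the adapted/B6129SF1 group and 17.8 ± 5.73 in the adapted/C57BL/6 group, so the adapted means were 6.49 and 4.02 times the original mean. Without adapted/B6129SF1 replicate 3 the former was 4.23 times. Cfb rose in both adapted groups against the same original/B6129SF1 tumors. The log2 fold change was 2.32 ± 0.39 (SE; adjusted p = 0.0126) in the adapted/B6129SF1 group and 1.76 ± 0.39 (adjusted p = 0.0336) in the adapted/C57BL/6 group, by limma with Benjamini-Hochberg adjustment.

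Cfb passed in both groups without adapted/B6129SF1 replicate 3 (log2 fold change 1.88, adjusted p = 0.0149, and 1.76, adjusted p = 0.00787, limma). The adapted/B6129SF1 call was lost only without original/B6129SF1 replicate 3 among the tumors left out 1 at a time (2.29, adjusted p = 0.0529). The adapted/C57BL/6 call was lost without any 1 of the original/B6129SF1 tumors (adjusted p = 0.0628, 0.0930 and 0.102 without replicates 1, 2 and 3) and without adapted/C57BL/6 replicate 1 or 3 (0.0977 and 0.131), with log2 fold changes between 1.59 and 1.93.

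Cfd, or adipsin, cleaves factor B and is a classic product of fat cells. It was listed at 0, 0 and 0.902 FPKM in the original/B6129SF1 tumors, 0.386, 6.29 and 38.0 in the adapted/B6129SF1 tumors and 8.34, 0 and 1.73 in the adapted/C57BL/6 tumors. The groups overlapped, and adapted/B6129SF1 replicate 3 was 4.55 times the next tumor. The log2 fold change was 2.56 ± 1.16 (SE) in the adapted/B6129SF1 group (adjusted p = 0.197, limma) and 1.25 in the adapted/C57BL/6 group (adjusted p = 0.556). The tumors ordered by Cfd began with the same 3 as the tumors ordered by Adipoq: adapted/B6129SF1 replicate 3 (12.3 FPKM of Adipoq), adapted/C57BL/6 replicate 1 (2.17) and adapted/B6129SF1 replicate 2 (1.93). Adipoq was at or below 0.552 FPKM in the other 6 tumors. Of the 5 adipocyte genes tested 0 passed in either adapted group (limma; 2 and 0 at an unadjusted p under 0.05), and the part of fat tissue in the Cfd values was not tested.

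**Figure D4:**
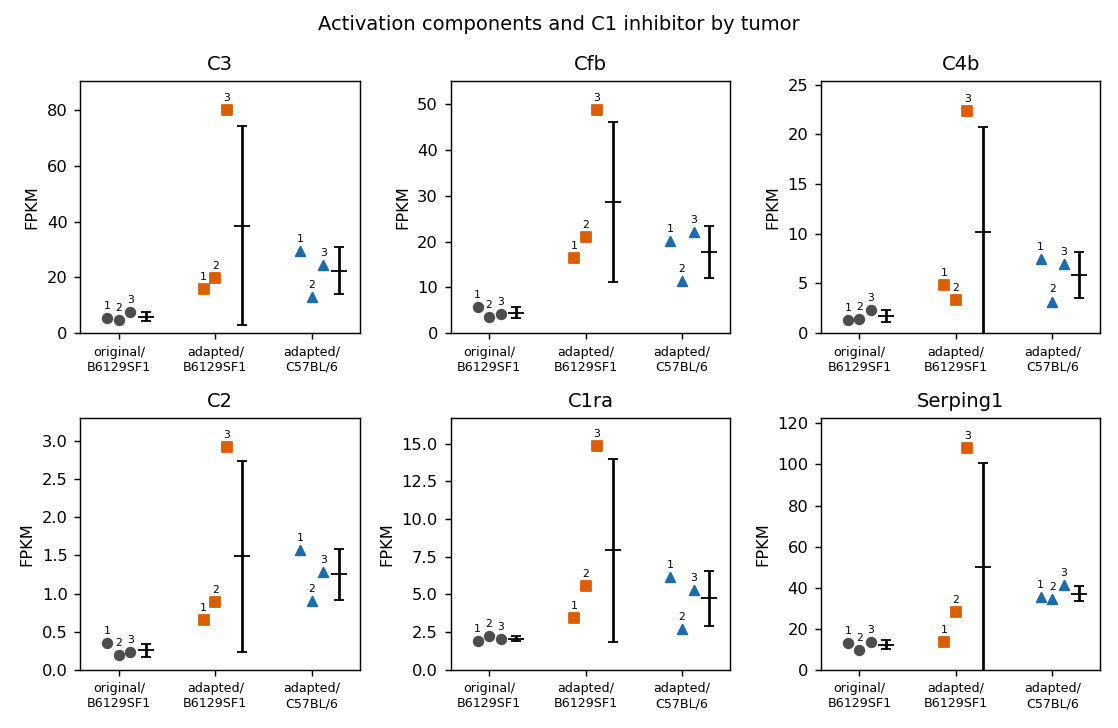
FPKM of C3, Cfb, C4b, C2, C1ra and Serping1 (vertical axes from 0) by group (horizontal), with 1 numbered point per tumor and black bars for the mean ± SD (n = 3; bars that would pass below 0 are cut there). In each panel adapted/B6129SF1 replicate 3 is the highest point, and for all but Serping1 every adapted tumor lies above the original/B6129SF1 tumors. The share of all tested genes with such a separation was not counted.

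The remaining classical pathway proteases and their substrates were low. C4b, the murine C4, measured 1.27, 1.43 and 2.36 FPKM in the original/B6129SF1, 4.85, 3.35 and 22.4 in the adapted/B6129SF1 and 7.50, 3.18 and 6.92 in the adapted/C57BL/6 tumors. C2, which together with C4 forms the C3 convertase, measured 0.347, 0.187 and 0.232 FPKM in the original/B6129SF1, 0.647, 0.889 and 2.92 in the adapted/B6129SF1 and 1.57, 0.901 and 1.28 in the adapted/C57BL/6 tumors. C1ra, a protease of the C1 complex, measured 1.90, 2.27 and 2.04 FPKM in the original/B6129SF1, 3.41, 5.53 and 14.8 in the adapted/B6129SF1 and 6.18, 2.71 and 5.30 in the adapted/C57BL/6 tumors. In these 3 genes no adapted tumor overlapped the original/B6129SF1 tumors. The share of all tested genes with such a separation was not counted, and C2 had entered the test through adapted tumors alone. Adapted/B6129SF1 replicate 3 was again the highest, at 2.98 times the next tumor for C4b and 2.40 times for C1ra. Without it the adapted/B6129SF1 means were 4.10, 0.768 and 4.47 FPKM for C4b, C2 and C1ra, below the adapted/C57BL/6 means of 5.86, 1.25 and 4.73.

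None of the 3 passed in the comparison of all tumors. The log2 fold change of adapted/B6129SF1 over original/B6129SF1 was 1.67 ± 0.57 (SE) for C4b (adjusted p = 0.107), 0.88 ± 0.31 for C2 (adjusted p = 0.114) and 1.33 ± 0.43 for C1ra (adjusted p = 0.0944), by limma with Benjamini-Hochberg adjustment. For adapted/C57BL/6 over original/B6129SF1 it was 1.31 for C4b (adjusted p = 0.202), 0.83 for C2 (adjusted p = 0.141) and 0.85 for C1ra (adjusted p = 0.266, limma). C1ra passed in the adapted/B6129SF1 group without replicate 1 (1.73, adjusted p = 0.0432). C4b passed in the adapted/C57BL/6 group without adapted/B6129SF1 replicate 3 (adjusted p = 0.0358, limma). C2 did so too (0.0297), but it had entered the test through adapted tumors alone, so that call is no support for a difference. C4b and C1ra have near-identical neighbors in the mouse genome (C4a and C1rb), and how the authors' counting divided reads between such copies was not given in the sources used here. C4a had no row, so no level of it could be set beside C4b. C1rl, a C1r-like protease, stayed between 0.721 and 1.65 FPKM in all tumors and did not pass in any comparison.

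Serping1 encodes C1 inhibitor, the fluid phase serpin that blocks C1r, C1s and the MASP proteases. It measured 13.0, 9.81 and 13.7 FPKM in the original/B6129SF1 tumors, 13.6, 28.2 and 108 in the adapted/B6129SF1 tumors and 35.5, 34.5 and 41.2 in the adapted/C57BL/6 tumors. Adapted/B6129SF1 replicate 1 lay within the range of the original/B6129SF1 tumors, whereas the 3 adapted/C57BL/6 tumors lay above it and close together. The mean was 12.2 ± 2.08 FPKM (SD, n = 3) in the original/B6129SF1 group and 37.1 ± 3.61 in the adapted/C57BL/6 group, and the adapted/B6129SF1 mean of 50.04 ± 50.9 rested on replicate 3. The log2 fold change over original/B6129SF1 was 1.46 ± 0.59 (SE) in the adapted/B6129SF1 group (adjusted p = 0.156) and 1.54 ± 0.59 in the adapted/C57BL/6 group (adjusted p = 0.154, limma with Benjamini-Hochberg adjustment).

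Because the 3 groups shared 1 estimate of the spread, the scatter of the adapted/B6129SF1 tumors also entered the adapted/C57BL/6 comparison. With the adapted/C57BL/6 and original/B6129SF1 tumors alone, Serping1 passed at an adjusted p of 0.00282, and C3 (0.0194), C4b (0.0433), C2 (0.0378) and Cfb (0.0116) passed too, all as higher (limma, 5 of 18 members, against 4.95% of all tested genes). C2 is among these 5 although it entered the test through adapted tumors alone. In the same kind of fit for the adapted/B6129SF1 group C3 did not pass (adjusted p = 0.0856, limma). Without adapted/B6129SF1 replicate 3 the same 5 genes passed in the adapted/C57BL/6 group (against 4.64% of all tested genes), Serping1 at 0.0100. In the adapted/B6129SF1 group C3 and Cfb were the 2 that passed as higher without that tumor, against 2.85% of all tested genes, while Serping1 passed there without replicate 1 (log2 fold change 2.11, adjusted p = 0.0401).

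Clu encodes clusterin, a secreted chaperone that also keeps the terminal complex out of membranes. It measured 159, 195 and 144 FPKM in the original/B6129SF1 tumors, 17.1, 12.4 and 32.2 in the adapted/B6129SF1 tumors and 20.7, 46.2 and 21.7 in the adapted/C57BL/6 tumors. The lowest original tumor held more than 3 times the FPKM of the highest adapted tumor. The mean of 166 ± 26.3 FPKM (SD, n = 3) in the original/B6129SF1 group stood against 20.6 ± 10.4 in the adapted/B6129SF1 group and 29.5 ± 14.5 in the adapted/C57BL/6 group, a log2 difference of -3.05 and -2.54. These values chose the gene and are given with no test. Clu made up 9.09% to 11.7% of the members' FPKM in the original/B6129SF1 tumors and 0.686% to 3.97% in the adapted tumors. Between the adapted groups, which the choice did not use, the log2 fold change of adapted/C57BL/6 over adapted/B6129SF1 was 0.51 ± 0.38 (SE) and did not pass (adjusted p = 0.869, limma with Benjamini-Hochberg adjustment).

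Clusterin is abundant in many epithelial cells. The epithelial list, led by Epcam, Cdh1 and Krt8, summed to 635 to 1051 FPKM in the original/B6129SF1, 268 to 555 in the adapted/B6129SF1 and 385 to 430 in the adapted/C57BL/6 tumors, and 2 of its 7 tested genes passed as lower in each adapted group. Nearly all of this sum was keratin Krt8 and Krt18 RNA, and both genes that passed, Krt8 and Krt20, are keratins. Of the defining markers, Krt8 averaged 510 FPKM in the original/B6129SF1, 205 in the adapted/B6129SF1 and 228 in the adapted/C57BL/6 group. Cdh1 averaged 2.69, 1.54 and 3.62 FPKM and Epcam 1.13, 0.945 and 1.32 in the same order of groups. Both were low and did not pass in either adapted group. Whether epithelial content had a part in the Clu values was not tested.

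Among the receptors, C1qbp was the most abundant and the only member called lower. It encodes a largely mitochondrial protein that can bind the globular heads of C1q. C1qbp measured 128.98, 109 and 117 FPKM in the original/B6129SF1 tumors, 76.9, 94.96 and 91.3 in the adapted/B6129SF1 tumors and 96.7, 98.7 and 110 in the adapted/C57BL/6 tumors. The adapted/B6129SF1 tumors lay below both other groups, and the adapted/C57BL/6 tumors overlapped the original/B6129SF1 tumors. In the adapted/B6129SF1 group C1qbp fell by 0.43 in log2 units (SE 0.11, adjusted p = 0.0491, limma with Benjamini-Hochberg adjustment). This call was lost when any 1 of the 9 tumors was left out (adjusted p = 0.0556 to 0.150, log2 fold change -0.49 to -0.34). The adapted/C57BL/6 value was -0.22 (adjusted p = 0.273, limma).

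C3ar1 and C5ar1 encode the receptors for the C3a and C5a fragments and are carried by myeloid cells. C3ar1 lay between 23.1 and 42.5 FPKM and C5ar1 between 16.2 and 42.2 FPKM in the 9 tumors, and the groups overlapped in every comparison. Their log2 fold changes in the adapted/B6129SF1 group were 0.31 and 0.14, and in the adapted/C57BL/6 group C5ar1 reached 0.58 (adjusted p = 0.266, limma). Cd93, a C-type lectin of endothelial and myeloid cells once proposed as a C1q receptor, measured 19.2, 12.6 and 20.68 FPKM in the original/B6129SF1, 16.9, 12.6 and 20.4 in the adapted/B6129SF1 and 21.4, 20.70 and 23.4 in the adapted/C57BL/6 tumors. The adapted/C57BL/6 values lay above the others by a margin that is small beside the spread of the other groups, and the log2 fold change over adapted/B6129SF1 was 0.40 ± 0.21 (SE; adjusted p = 0.823, limma). Endothelial genes summed to 79.6 to 135 FPKM over all tumors, and 0 of the 9 tested passed in either adapted group (limma; 1 and 0 at an unadjusted p under 0.05).

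The membrane regulators showed no call. Cr1l, or Crry, the main membrane inhibitor of C3 convertases in mice, was the steadiest member, at 29.4, 30.0 and 29.0 FPKM in the original/B6129SF1 tumors and 28.9, 27.4 and 28.7 in the adapted/B6129SF1 tumors. It ranged from 26.1 to 31.3 FPKM in the adapted/C57BL/6 tumors, and its log2 fold change in the adapted/B6129SF1 group was -0.06 (adjusted p = 0.711, limma with Benjamini-Hochberg adjustment). Cd59a, which blocks the terminal pore, lay between 3.46 and 10.5 FPKM, and its adapted/B6129SF1 log2 fold change was -0.52 (adjusted p = 0.325, limma). Cd55, which speeds the decay of convertases, was between 0.492 and 1.92 FPKM except for 8.35 in adapted/B6129SF1 replicate 3. Cd46, whose expression in mice is largely limited to the testis, lay between 0.214 and 1.38 FPKM.

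Lectin pathway proteases were weak. Masp1 measured 3.07, 2.95 and 4.70 FPKM in the original/B6129SF1, 2.12, 2.49 and 2.28 in the adapted/B6129SF1 and 2.76, 4.14 and 2.67 in the adapted/C57BL/6 tumors. The adapted/B6129SF1 tumors lay below both other groups, but the log2 fold change over original/B6129SF1, -0.45 ± 0.19 (SE), did not pass (adjusted p = 0.167, limma). Masp2 did not exceed 0.366 FPKM in any tumor.

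Terminal components were at or near 0. Hc, the murine C5, reached at most 0.0385 FPKM and C7 at most 0.161, with C7 listed at 0 in 7 tumors. C8g measured 0.105, 0.129 and 0 FPKM in the original/B6129SF1 and 0.142, 0.226 and 0.146 in the adapted/B6129SF1 tumors, and it reached at most 0.233 in the adapted/C57BL/6 tumors. C6 was at or below 0.378 FPKM except for 2.29 in adapted/B6129SF1 replicate 3. The fluid phase regulators made mainly by the liver were similar, since Cfi reached at most 0.151 FPKM, and Vtn was at or below 0.0831 FPKM except for 1.57 in adapted/B6129SF1 replicate 3 and 0.502 in adapted/C57BL/6 replicate 1. The hepatocyte list, which holds genes of the main source of these plasma proteins, summed to 0.177 to 2.11 FPKM with Alb at most 0.0239.

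**Figure D5:**
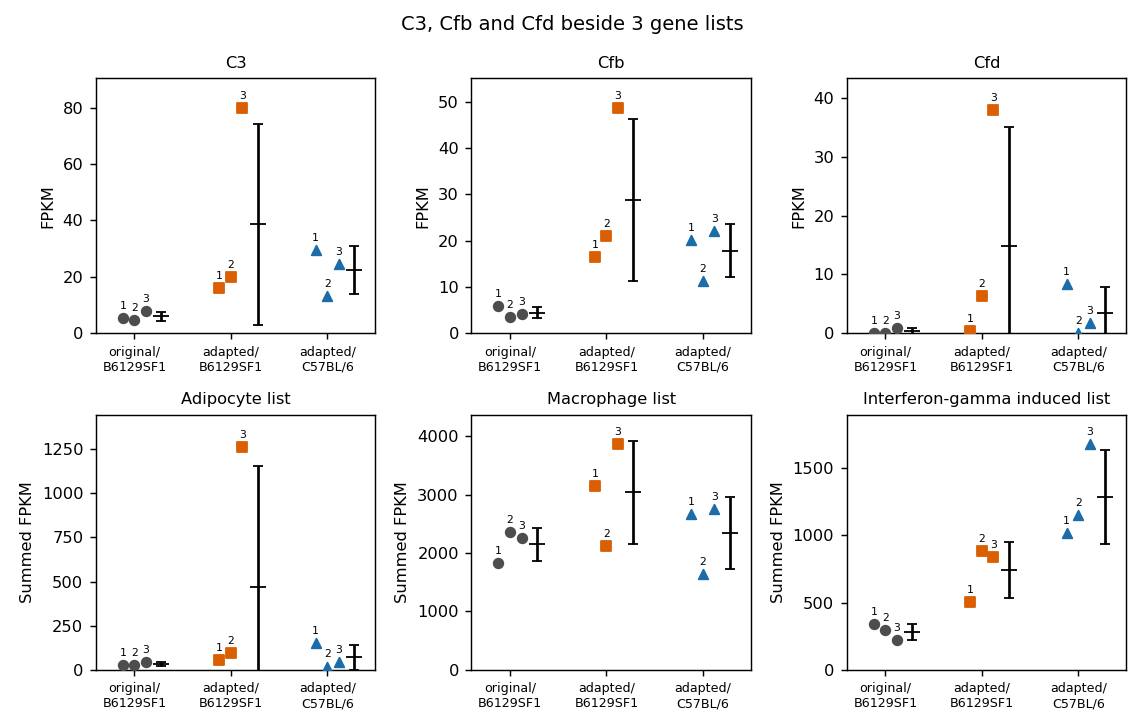
FPKM of C3, Cfb and Cfd (top) and summed FPKM of the adipocyte, macrophage and interferon-gamma induced lists (bottom), vertical axes from 0, by group, with 1 numbered point per tumor and black bars for the mean ± SD (n = 3; bars that would pass below 0 are cut there). Adapted/B6129SF1 replicate 3 is the highest point for C3, Cfb, Cfd and the adipocyte and macrophage sums, whereas the interferon-gamma induced sum is highest in the adapted/C57BL/6 tumors. Car3 gave 949 of the 1263 FPKM of the adipocyte sum in adapted/B6129SF1 replicate 3, the tumor richest in skeletal muscle markers.

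The remaining marker lists are set beside the members here. Genes induced by interferon-gamma (Irf1 and Ciita among them) summed to 218 to 337 FPKM in the original/B6129SF1, 506 to 880 in the adapted/B6129SF1 and 1017 to 1680 in the adapted/C57BL/6 tumors, and 11 and 13 of the 15 tested passed as higher in the adapted/B6129SF1 and adapted/C57BL/6 groups. Irf1 averaged 33.5, 54.8 and 94.7 FPKM in the same order of groups. Ciita did not follow that order, with means of 0.948, 5.09 and 2.10 FPKM. It did not pass in the adapted/C57BL/6 group (adjusted p = 0.193, limma). The sum of this list, C3 and Cfb were each higher in all adapted than in all original tumors. The sum was highest in the adapted/C57BL/6 tumors, and C3 and Cfb were highest in adapted/B6129SF1 replicate 3. Without that tumor the adapted/B6129SF1 mean was 17.9 FPKM for C3 and 18.7 for Cfb, against 22.4 and 17.8 in the adapted/C57BL/6 group. The part of interferon-gamma in the C3 and Cfb values was not tested. Fibroblast genes summed to 1009 to 1274 FPKM in the original/B6129SF1, 1119 to 1939 in the adapted/B6129SF1 and 1256 to 1458 in the adapted/C57BL/6 tumors, with 1 (Fap) and 2 (Fap and Thy1) of 12 genes higher. T and NK cell genes summed to 8.57 to 23.2, 21.0 to 48.9 and 55.6 to 86.6 FPKM in the same order of groups, with 2 (Cd3g and Nkg7) and 3 (these and Gzmb) of 8 higher. Neutrophil genes summed to 9.29 to 59.7 FPKM, thyroid genes to 25.1 to 75.7 and red blood cell genes to 6.52 to 116 over all tumors. None of the 5 neutrophil, 2 thyroid, 2 red blood cell and 11 skeletal muscle genes tested passed in either adapted group (limma), and at an unadjusted p under 0.05 there were 2 neutrophil genes in the adapted/B6129SF1 group and 0 of the others. Fcgr1, Fap, Thy1, Krt20, Cd3g, Nkg7 and Gzmb are named because they passed, and Krt18, Car3, Fabp4, Cidea and Pck1 after their levels were seen. The part of these cell types in the complement values was not tested.

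Complement genes outside the member list gave no call. Of 27 such genes, 25 had a row and 8 were tested, and 0 passed in any comparison (limma; 1, 2 and 0 at an unadjusted p under 0.05 in the 3 comparisons). Their median log2 fold change was 0.31 in the adapted/B6129SF1 group, 0.37 in the adapted/C57BL/6 group and 0.10 between the adapted groups. C8a and C8b, partners of C8g in the pore, were at or near 0, like the other terminal components.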

How the data were processed

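RNA of 9 whole tumors, 3 per group, was measured, and groups and replicate numbers came from the labels. The authors checked reads with FastQC, aligned them to the mouse genome with HISAT2 and made the deposited FPKM values with Cuffnorm. The gene annotation and the use of strand were not given in the sources used here. FPKM are not counts, so no count test was run. The table held 17369 genes, and no 2 tumors shared more than 0.0487% of their values. The log2(FPKM + 1) values were fitted by lmFit and eBayes with a mean-variance trend (limma 3.58.1, R 4.3.3) in 1 model of 3 groups, for genes that reached 1 FPKM in 3 or more tumors, after a check on simulated data. A member passed at a Benjamini-Hochberg adjusted p under 0.05, and DEGs also had an absolute log2 fold change above 1. Exact permutation tests of 3 tumors against 3 cannot give a p below 0.1 and were not used for calls.

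The members and gene lists were chosen with earlier results of these data known. Values per tumor are given for Clu, members that passed, members whose groups did not overlap and members of at least 50 FPKM. Cfd lies outside this rule and was added after its values were seen. Other genes come from the fixed lists. Alternatives were a pseudocount of 0.1, no filter, a filter of 5 FPKM, rescaling to the same median, only the groups compared, a replicate block, eBayes without a trend, each tumor left out, and both muscle-rich tumors left out. Same-numbered tumors are different animals. The labels name the organism as human, whereas the symbols and the study are murine, so the human reference was not used and no sequences are given. Some genes of the lists are not reported here by name.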

Additional observations from a re-analysis of the deposited data

How the results depend on the processing

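Of 758 recomputed member values under the alternatives, 698 kept their direction and their side of the threshold, 31 calls were lost, 13 were gained, 12 values changed sign and 4 values of Clu moved by more than 1 SD. Between the adapted groups these values cover only Cfd, Cfb, Clu, C5ar1, C1qbp, Cd93 and Masp1. Of the members left out there, some changed sign without adapted/B6129SF1 replicate 3. C3 went from -0.46 to 0.24, C4b from -0.36 to 0.38 and C2 from -0.04 to 0.34. C1ra went from -0.48 to 0.04 and C1rl from -0.07 to 0.04. The C1q genes, C3ar1, Cd59a, Cr1l and Serping1 kept their sign. For members higher in adapted/B6129SF1 than in original/B6129SF1 the count of 2 became 1 with no filter and with only the groups compared, and 0 to 4 with 1 tumor left out. The count of 1 lower member became 0 with no filter, with a filter of 5 FPKM, with only the groups compared, with a replicate block, without a trend, without both muscle-rich tumors, with a log2 fold change above 1 also required, and 0 to 0 with 1 tumor left out. For members higher in adapted/C57BL/6 than in original/B6129SF1 the count of 1 became 0 with no filter, 5 with only the groups compared (C2 included), 2 with a replicate block (Cfb and C5ar1, the latter at an adjusted p of 0.0354 by limma), 3 without both muscle-rich tumors, and 0 to 5 with 1 tumor left out. The other counts were 0 under all alternatives run. With 1 tumor left out, the log2 fold change in adapted/B6129SF1 ran from -0.0317 to 0.42 for C5ar1 and from -0.27 to 0.11 for Cd93, and in adapted/C57BL/6 from -0.0252 to 0.23 for C1rl, from -0.28 to 0.0453 for Masp1 and from -0.10 to 0.0271 for Cr1l. Without both muscle-rich tumors it was -0.0261 for C5ar1 in adapted/B6129SF1 and -0.0252 for C1rl in adapted/C57BL/6. The cause of these shifts was not tested. Deviations of same-numbered tumors from their group means correlated at -0.33, 0.03 and 0.01 (adapted/B6129SF1 with original/B6129SF1), 0.11, 0.30 and 0.07 (adapted/C57BL/6 with original/B6129SF1) and -0.39, 0.61 and -0.26 (adapted/C57BL/6 with adapted/B6129SF1). Differently numbered tumors were not compared in this way, so these values cannot decide whether same-numbered tumors shared a batch. With 3 tumors per group and FPKM of unknown depth, small differences of weakly expressed members could not be detected.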
